A study of Mus musculus with 27 samples.

Results

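The variable (V) segments of the T cell receptor alpha chain (Trav) and beta chain (Trbv) made up 136 of the 47729 genes in the count table. They were the genes whose symbols start with Trav or Trbv and that held at least 10 counts summed over the 27 libraries. Of 128 Trav genes in the table, 111 met this rule, 14 had no count and 3 had fewer than 10. Of 35 Trbv genes, 25 met it, 8 had no count and 2 had fewer than 10. Just inside the threshold stood Trav20 with 14 counts and Trbv7 with 13, and just outside it Trav12-4 and Trav15n-1 with 3 each and Trbv10 with 7. In the GENCODE M21 annotation of GRCm38, the Trav members lie on chromosome 14 between positions 52427928 and 53876752, and the Trbv members on chromosome 6 between 40891229 and 41558452. That annotation lists 6 of the Trav and 3 of the Trbv members as pseudogenes.

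A developing T cell joins a V segment to a J segment at the alpha locus, and V, D and J segments at the beta locus, and its progeny inherit the joined genes. Cells of a clone therefore transcribe the same V segments, and the shares of the V segments in a bulk library describe, coarsely, which clones its RNA came from. The V segment encodes the receptor loops that mostly contact the presenting MHC molecule, whereas the loop that meets the peptide is made at the joint, which gene counts do not show. Parts of the mouse alpha locus occur in several copies, whose segment names carry d or n.

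All libraries were made from CD8+ T cells of tumours of MC38, a cell line from a colon adenocarcinoma of the mouse. Live CD45+CD3+CD8+ cells of digested tumours were sorted on PD-1, which inhibits activated T cells, and on KLRG1, a receptor of late effector T cells. The treatments are Iso, an isotype control, and Tri, a combined immunotherapy called TCT in the series text, with its components not named. The design had 5 libraries each of Tri PD1+KLRG1+, Tri PD1+KLRG1- and Tri PD1-KLRG1-, and 4 each of Tri PD1-KLRG1+, Iso PD1-KLRG1+ and Iso PD1-KLRG1-. No transgene or deletion is named for any group, the strain field gives only MC38, and the host strain, age and time of harvest are not given. Since PD1+ gates exist for Tri and not for Iso, Tri and Iso were compared in PD1- cells. The labels repeat a replicate number across the gates of a treatment without saying whether equal numbers share a mouse, and they do not say that replicates were separate animals. The p-values measure only the spread between these libraries, which may in part be technical.

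Totals of 26 libraries lay between 6991521 and 26284630 counts, and Iso PD1-KLRG1+ replicate 3 held 93198. The Trav members held 2301 to 9144 counts per library and the Trbv members 3077 to 13139, except in that replicate, with 48 and 53. Of 6935 genes of ordinary expression, 16.29% ± 9.08 (SD, n = 4) had no count in the Iso PD1-KLRG1+ libraries, against group means of 0.0360% to 1.77% in the other 5 groups. Cell numbers per library were not given. The share of a segment below is its percentage of all Trav or all Trbv counts of the library. A share rises with the number of cells that carry the segment and with the segment's RNA per cell, and the 2 cannot be told apart in bulk RNA.

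The sequences of the 4 beta segments that most of the results turn on are shown first, since they differ from each other over their whole length. They are the last 300 coding bases of the GENCODE M21 transcripts on GRCm38, 5′ to 3′, with the last in-frame cysteine codon in capitals, after which the part made at the joint begins within a few bases. All 4 lie on the plus strand, Trbv5 at chr6:41062332-41062803, Trbv13-1 at chr6:41116007-41116468, Trbv12-2 at chr6:41118851-41119364 and Trbv16 at chr6:41151740-41152230. The genome build of the deposited counts is not given, so these positions are those of the annotation.
Trbv5: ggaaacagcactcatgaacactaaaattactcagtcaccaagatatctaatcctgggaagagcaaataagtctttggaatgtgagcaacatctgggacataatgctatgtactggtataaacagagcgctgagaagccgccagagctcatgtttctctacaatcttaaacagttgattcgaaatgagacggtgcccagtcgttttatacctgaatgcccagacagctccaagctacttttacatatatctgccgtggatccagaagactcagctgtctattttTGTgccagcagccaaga
Trbv13-1: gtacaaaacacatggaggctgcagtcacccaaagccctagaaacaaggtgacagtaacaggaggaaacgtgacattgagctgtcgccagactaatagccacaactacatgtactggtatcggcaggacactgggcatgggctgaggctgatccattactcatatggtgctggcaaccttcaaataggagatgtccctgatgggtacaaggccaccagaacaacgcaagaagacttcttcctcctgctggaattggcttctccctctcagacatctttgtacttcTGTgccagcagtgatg
Trbv12-2: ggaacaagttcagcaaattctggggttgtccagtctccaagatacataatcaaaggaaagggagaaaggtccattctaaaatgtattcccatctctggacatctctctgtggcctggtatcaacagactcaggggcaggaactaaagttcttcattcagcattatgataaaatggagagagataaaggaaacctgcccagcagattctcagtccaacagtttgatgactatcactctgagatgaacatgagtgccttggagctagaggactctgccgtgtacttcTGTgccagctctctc
Trbv16: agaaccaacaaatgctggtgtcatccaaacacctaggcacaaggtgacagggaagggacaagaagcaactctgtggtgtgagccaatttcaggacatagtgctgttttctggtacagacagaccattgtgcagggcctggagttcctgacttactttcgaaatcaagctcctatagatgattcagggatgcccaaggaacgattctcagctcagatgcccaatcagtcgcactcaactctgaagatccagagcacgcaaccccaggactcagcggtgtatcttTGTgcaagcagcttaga
Over the whole coding sequence, between any 2 of them, 50% to 59.9% of the bases were identical, and no Trbv member was 95% identical to another.

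The alpha segments differ in this. Of the 105 Trav members with a coding sequence, 30 were identical over it to another member, 54 were at least 98% identical and 87 at least 95% identical. The 54 near-identical members held between 27.21% and 66.92% of the Trav counts of a library, with a median of 51.64%. The last 120 coding bases of Trav6-6 (chr14:53516929-53517366) and Trav6d-6 (chr14:52821922-52822359) are shown because the whole coding sequences of both were the same. Bases 22 to 170 of Trav10 (chr14:53505727-53506286) and Trav10d (chr14:52810934-52811496) are shown with their differences in capitals. Counted from the first coding base, with Trav10 first, these were A42G, T84C and T150C, and they were the only 3 differences in 343 coding bases.
Trav6-6: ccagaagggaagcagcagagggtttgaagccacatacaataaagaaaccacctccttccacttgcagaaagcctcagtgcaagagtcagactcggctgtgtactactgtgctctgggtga
Trav6d-6: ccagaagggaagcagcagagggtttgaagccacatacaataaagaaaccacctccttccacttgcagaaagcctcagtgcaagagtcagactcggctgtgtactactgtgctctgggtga
Trav10: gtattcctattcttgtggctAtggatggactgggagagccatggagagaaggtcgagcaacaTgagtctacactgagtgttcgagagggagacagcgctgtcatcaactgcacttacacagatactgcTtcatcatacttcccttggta
Trav10d: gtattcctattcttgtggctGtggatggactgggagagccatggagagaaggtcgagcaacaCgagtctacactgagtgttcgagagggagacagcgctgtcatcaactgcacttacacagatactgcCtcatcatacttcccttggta

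Counts of identical copies were often exactly equal or nearly all on one copy. There were 15 pairs of identical copies, and 250 combinations of a pair and a library with at least 20 counts for the pair. In 150 of the 250 the copies held exactly equal counts, and in 84 one copy held at most 5% of the pair. Trav6-6 and Trav6d-6 in the Tri PD1+ gates show both patterns. They held 76 and 76 counts in PD1+KLRG1+ replicate 1, 914 and 4 in replicate 2, 19 and 19 in replicate 3, 24 and 24 in replicate 4, and 63 and 63 in replicate 5. In PD1+KLRG1- they held 76 and 76, 16 and 774, 123 and 123, 0 and 102, and 144 and 144 in the same order. In replicate 2 the leading alpha segment was thus Trav6-6 in one gate and Trav6d-6 in the other, at 12.01% and 12.9% of Trav counts. Their summed share as Trav6-6/Trav6d-6 was 12.1% and 13.2%. Alpha results were therefore also computed with members of at least 98% identity merged, which left 82 units, and which copy of a merged unit was transcribed is uncertain.

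**Figure D1:**
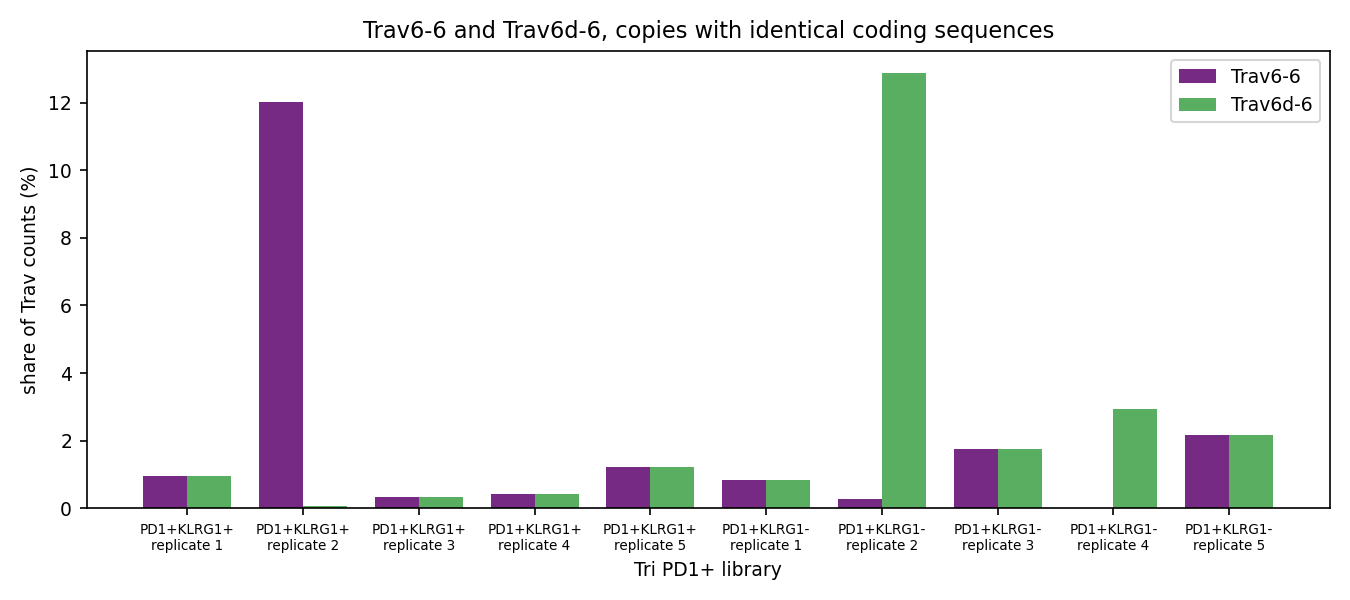
Share of Trav counts (percent, y axis) of Trav6-6 and Trav6d-6, which have the same coding sequence, in the 10 Tri PD1+ libraries (x axis). Bars are single libraries, equal in most of them, while in replicate 2 Trav6-6 held 12.01% in PD1+KLRG1+ and Trav6d-6 held 12.9% in PD1+KLRG1-.

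V segment usage was broad and much alike in 3 of the 4 PD1- groups. The effective number of segments, the exponential of the Shannon entropy of the shares, is the number of equally used segments that would give the same entropy. For alpha it was 63.4, 61.1, 57.4 and 64.2 in Iso PD1-KLRG1- replicates 1 to 4, and 62.8, 58.9, 53.4 and 61.7 in Tri PD1-KLRG1+. The Tri PD1-KLRG1- libraries had 61.8, 64.5, 62.4, 61.3 and 42.8 effective segments, where replicate 5 stood below the rest. For beta it ran from 15.005 to 17.3 over these 13 libraries, out of 25 segments. Within each of the 3 gates, pairs of libraries shared 66.2% to 67.3% of their Trav usage and 83.5% to 86.6% of their Trbv usage on average, as the sum over segments of the smaller share.

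In the PD1+ gates fewer segments held most of the counts. The effective number of alpha segments was 28.9, 36.1, 29.3, 34.3 and 19.8 in Tri PD1+KLRG1+ replicates 1 to 5. In Tri PD1+KLRG1- it was 27.3, 34.7, 29.3, 28.5 and 23.5. All 10 PD1+ libraries lay below all 9 Tri PD1- libraries. For beta it was 11.5, 15.2, 11.7, 8.74 and 5.55 in PD1+KLRG1+ and 5.63, 14.3, 8.06, 5.85 and 7.11 in PD1+KLRG1-, against 15.005 to 17.3 in Tri PD1-. Replicate 2 kept the broadest beta usage of both PD1+ gates, and its PD1+KLRG1+ library reached into the PD1- range. In PD1+KLRG1+ replicates 1 to 5, 2.55%, 3.58%, 2.54%, 0.0288% and 0.159% of genes of ordinary expression had no count. In Tri PD1-KLRG1+ this was 0.0144% to 0.692%, in PD1+KLRG1- at most 0.115% and in Tri PD1-KLRG1- at most 3.42%. The part of missing genes in the narrower usage was not tested.

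Evenness, the entropy divided by its largest possible value for the chain, was compared with 2-sided exact permutation tests. For Trav it was 0.715 ± 0.0499 (SD, n = 5) in PD1+KLRG1+ against 0.866 ± 0.0154 (n = 4) in Tri PD1-KLRG1+ (exact p = 0.0159), and 0.711 ± 0.0298 (n = 5) in PD1+KLRG1- against 0.862 ± 0.0362 (n = 5) in Tri PD1-KLRG1- (exact p = 0.00794). For Trbv it was 0.715 ± 0.119 against 0.873 ± 0.00986 in the KLRG1+ gates (exact p = 0.0159, n = 5 and 4) and 0.634 ± 0.116 against 0.865 ± 0.0152 in the KLRG1- gates (exact p = 0.00794, n = 5 and 5). The PD1+ and PD1- libraries did not overlap in any of these 4 comparisons, so each p is the smallest its design allows. Adjusted by Benjamini-Hochberg over the 42 single-value tests, each of the 4 became 0.075, and none of the 42 fell below 0.05, against 17 before adjustment. The descriptions fall into 2 name series, with an RNA-number suffix in Tri replicates 4 and 5 and Iso replicate 4. In the libraries without it, Trav evenness in PD1+ minus PD1- was -0.132 in KLRG1+ and -0.155 in KLRG1- cells and Trbv evenness -0.0795 and -0.203, each with an exact p of 0.1, the lowest value possible for 3 against 3. The libraries with the suffix were too few for a test of their own.

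**Figure D2:**
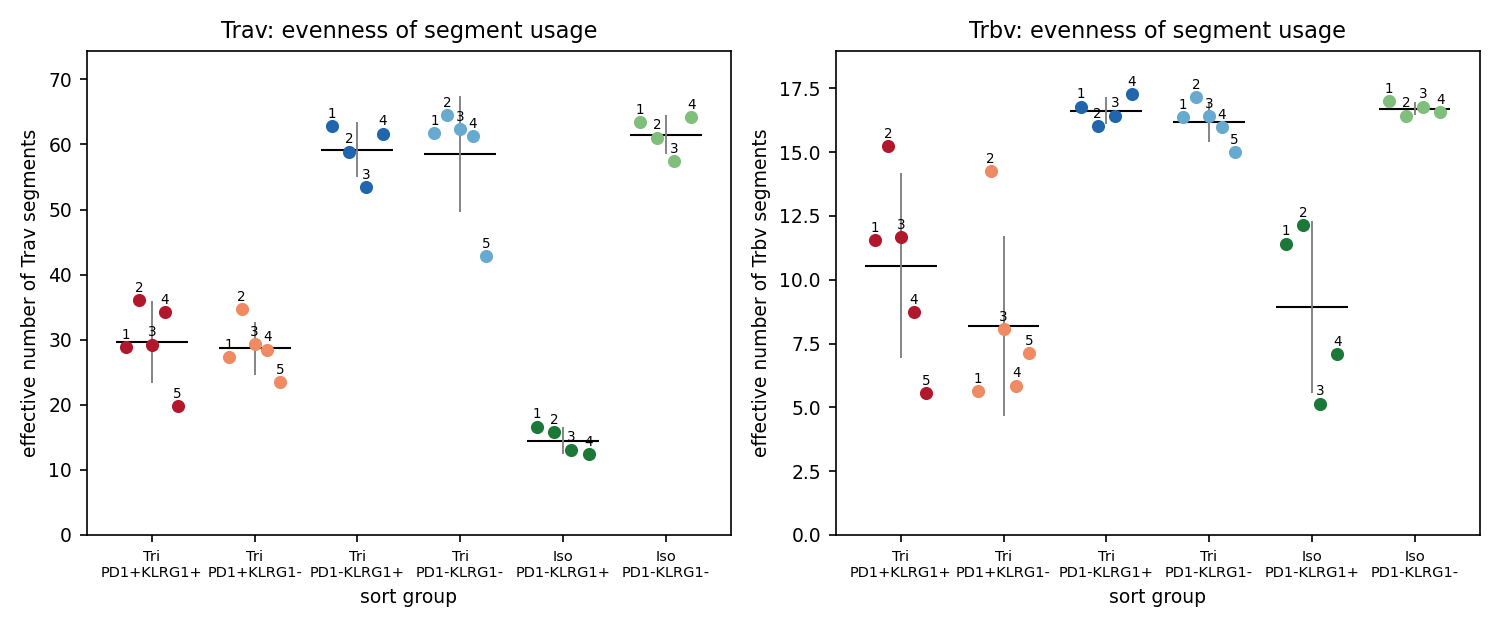
Effective number of Trav (left) and Trbv (right) segments per library, by sort group. Points are libraries, labelled by replicate number, horizontal lines are group means and vertical lines their SD. For Trav, all libraries of both PD1+ gates and of Iso PD1-KLRG1+ lie below the other 3 groups, with means of 29.7, 28.7 and 14.5 against 58.5 to 61.5. For Trbv the means do so too, but PD1+KLRG1+ replicate 2 (15.2) lies above Tri PD1-KLRG1- replicate 5 (15.005).

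The narrower usage of PD1+ cells was seen in both KLRG1 gates. The PD1 difference in Trav evenness was -0.151 in both, and that in Trbv evenness was -0.158 and -0.231. A permutation test of the difference between the gates did not pass (exact p = 0.998 for Trav and 0.566 for Trbv, n = 4 or 5 per group). It permuted PD1 labels within each KLRG1 gate and so assumes no PD1 effect in either. It cannot show that the effects were equal. Within the PD1+ gates, KLRG1+ and KLRG1- libraries overlapped for both chains, with exact p = 0.825 for Trav and 0.31 for Trbv (n = 5 and 5). Within Tri PD1-, they overlapped as well, with exact p = 1 and 0.333 (n = 4 and 5). Summed V segment expression overlapped between PD1+ and PD1- cells. Summed Trav expression was 395.2 ± 36.2 CPM (counts per 1000000 counts, n = 5) in PD1+KLRG1+ and 408.1 ± 26.3 CPM (n = 4) in Tri PD1-KLRG1+ (exact permutation p = 0.571). In the KLRG1- gates it was 403.6 ± 70.4 and 450.5 ± 55.8 CPM (exact permutation p = 0.31, n = 5 and 5).

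The single most abundant beta segment took 27.7% ± 14.8 of Trbv counts (SD, n = 5) in PD1+KLRG1+ and 36.3% ± 15.4 (n = 5) in PD1+KLRG1-, against 12.4% ± 2.17 (n = 4) and 12.4% ± 1.43 (n = 5) in the matching Tri PD1- gates (exact permutation p = 0.0159 for both, Benjamini-Hochberg adjusted 0.075). For alpha it took 13.6% ± 2.70 and 15.1% ± 2.71, against 5.12% ± 0.674 and 5.50% ± 0.826 (exact permutation p = 0.0159 with n = 5 and 4, and 0.00794 with n = 5 and 5). Which beta segment led differed between PD1+ replicates. Trbv5 led in 2 of 5 PD1+KLRG1+ libraries and Trbv13-1, Trbv13-2 and Trbv16 in 1 each, while Trbv13-1 and Trbv16 led in 2 each of the PD1+KLRG1- libraries and Trbv17 in 1. Trbv12-2 was the usual leader in Tri PD1-KLRG1- and Iso PD1-KLRG1-, first in 4 of 5 and in 3 of 4 libraries. In Tri PD1-KLRG1+ Trbv12-2 and Trbv19 led 2 of 4 libraries each, and Trbv12-2 led 0 of 4 libraries of Iso PD1-KLRG1+. These shares are of counts, not of counts per length, and dividing by exonic length left every PD1 difference in evenness in the same direction.

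Trbv5 held more of the beta counts in most PD1+ libraries than in any PD1- library. Its share was 22.7%, 2.44%, 17.8%, 27.5% and 7.98% in PD1+KLRG1+ replicates 1 to 5 and 11.7%, 1.71%, 23.8%, 26.9% and 6.83% in PD1+KLRG1-. In all 17 PD1- libraries of Tri and Iso it was at most 4.82%. Replicate 2 was the exception in both PD1+ gates, with Trbv5 within the PD1- range, and the 8 other PD1+ libraries lay above it. In the edgeR model of all genes described below, the PD1 difference of Trbv5 did not pass, at 2.21 ± 0.89 (log2 fold change ± SE, adjusted p = 0.324) in KLRG1- and 1.74 ± 0.96 (adjusted p = 0.558) in KLRG1+ cells.

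Trbv16 and Trbv13-1 were dominant in some replicates and not in others. Trbv16 held 18.5%, 9.13%, 1.52%, 30.4% and 5.51% in PD1+KLRG1+ replicates 1 to 5 and 49.2%, 4.96%, 1.35%, 45.2% and 9.60% in PD1+KLRG1-. It was thus high in replicates 1 and 4 and lowest in replicate 3 of both gates, where it fell short of every Tri PD1- library (7.95% to 13.8%). Trbv13-1 held 10.48%, 5.05%, 14.2%, 9.69% and 52.1% in PD1+KLRG1+ and 18.9%, 7.21%, 27.1%, 6.51% and 46.5% in PD1+KLRG1-, against 5.64% to 12.2% in Tri PD1-. Replicate 5 was highest in both gates, and its share in PD1+KLRG1+ had a 95% Wilson interval of 50.8% to 53.4%, which covers counting error only. Neither segment passed the edgeR quasi-likelihood test between PD1+ and PD1- cells. The log2 fold change of Trbv13-1 was 1.28 ± 0.55 (Benjamini-Hochberg adjusted p = 0.377) in KLRG1- and 0.87 ± 0.60 (adjusted p = 0.733) in KLRG1+ cells. That of Trbv16 was 1.19 ± 0.96 and 0.43 ± 1.03 (adjusted p = 1 for both).

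Trbv12-2 went the other way, and it did so in every replicate. It held 4.25%, 4.62%, 5.30%, 4.43% and 0.952% in PD1+KLRG1+ replicates 1 to 5, and 4.16%, 1.79%, 1.54%, 1.40% and 1.22% in PD1+KLRG1-. In Tri PD1-KLRG1+ replicates 1 to 4 it held 10.8%, 10.7%, 7.37% and 12.8%, and in Tri PD1-KLRG1- 12.4%, 9.86%, 12.8%, 13.8% and 12.8%. Iso PD1-KLRG1- was alike, at 9.41%, 12.6%, 11.2% and 12.96%, while Iso PD1-KLRG1+ ran lower and wider, at 3.31%, 7.57%, 1.89% and 11.6%. The PD1+ and Tri PD1- libraries did not overlap in either KLRG1 gate. The Trbv12 family as a whole, which here also takes in Trbv12-1, held 6.02% ± 2.42 and 4.24% ± 2.61 in the PD1+ gates (n = 5 each) against 15.4% ± 3.33 (n = 4) and 17.7% ± 1.64 (n = 5) in the Tri PD1- gates.

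**Figure D3:**
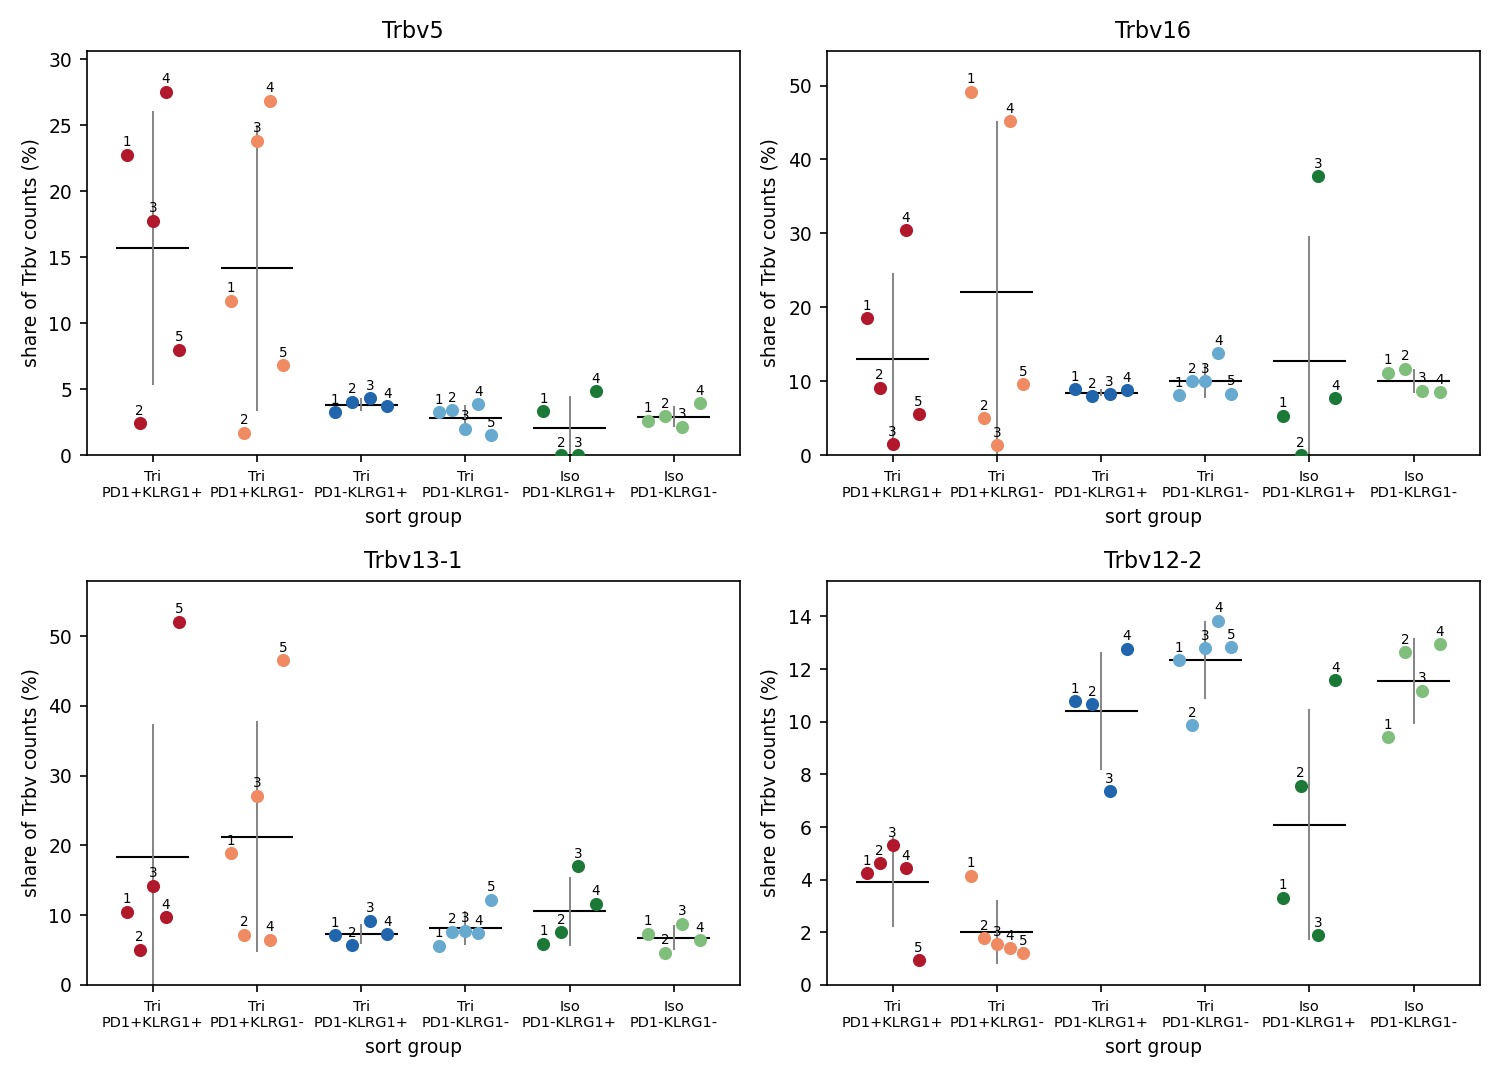
Share of Trbv counts held by Trbv5, Trbv13-1, Trbv12-2 and Trbv16 in each library, by sort group. Points are libraries labelled by replicate number, horizontal lines are group means and vertical lines their SD, ending at 0. Trbv12-2 lies at 0.952% to 5.30% in the PD1+ libraries, below the 7.37% to 13.8% of Tri PD1-, while the others vary from replicate to replicate.

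Other beta segments rose to high shares in single replicates. Trbv13-2 held 15.5% and 7.90% in PD1+ replicate 2 of the KLRG1+ and KLRG1- gates and 14.7% and 7.37% in replicate 3. Trbv17 held 10.3% and 13.6% in replicate 2 and 12.6% and 15.3% in replicate 3, but 0% and 0.0625% in replicate 5. Trbv14 held 14.1% and 10.3% in replicate 5. Segments high in a replicate of the PD1+KLRG1+ gate were thus often high in the replicate of the same number in the PD1+KLRG1- gate, which is taken up next.

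**Figure D4:**
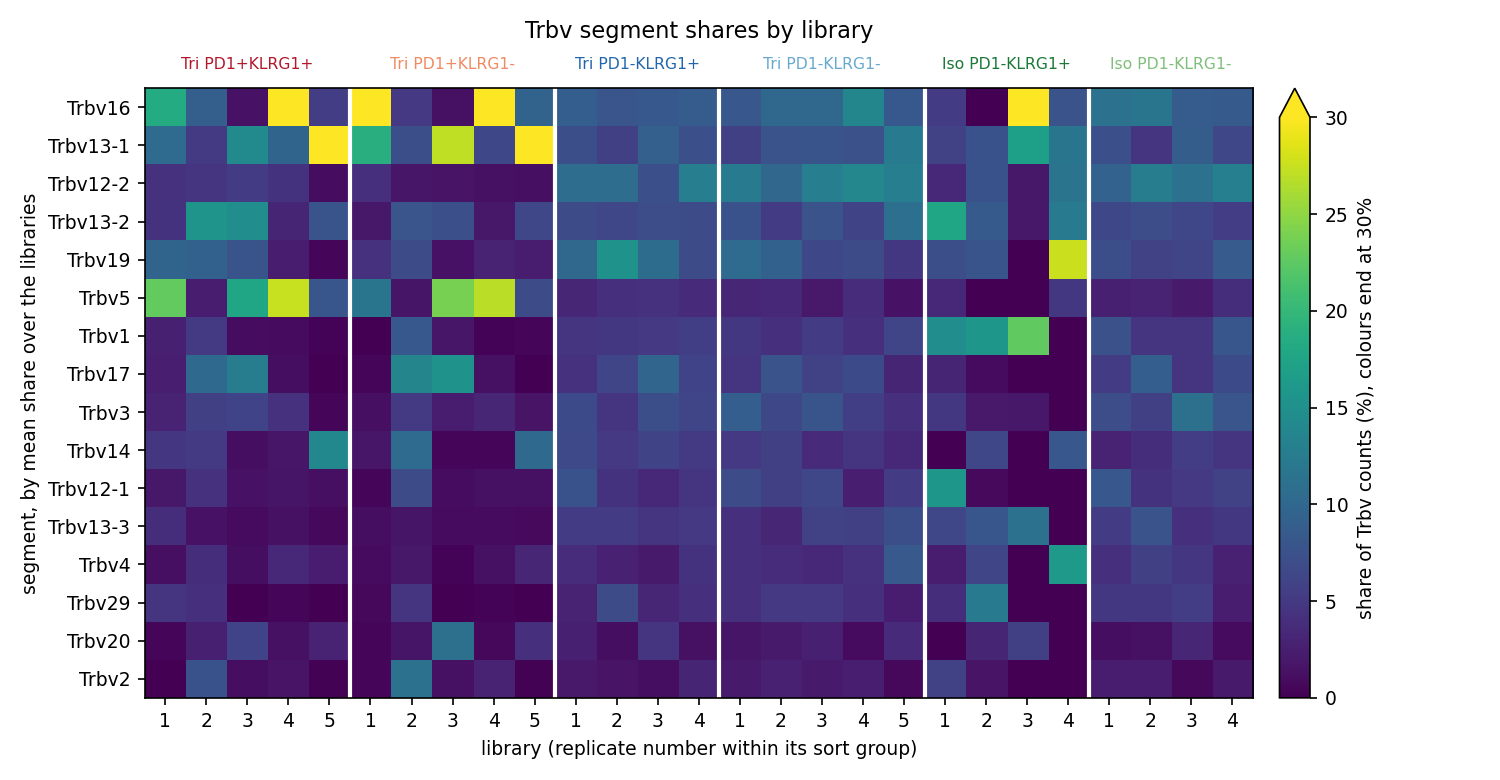
Share of Trbv counts (colour, percent, ending at 30%) of the beta segments with the highest mean shares (vertical axis) in each of the 27 libraries (horizontal axis, by sort group and replicate number). The PD1+ libraries each have a few bright cells, often in the same segments for equal numbers of both gates, such as Trbv16 in replicate 4 and Trbv13-1 in replicate 5.

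Libraries with the same replicate number shared more of their V segment usage than libraries with different numbers, and the excess was greatest between the 2 PD1+ gates. Across all Tri gates, the overlap of Trav usage was 51.4% ± 12.6 over 27 pairs of equal number and 42.05% ± 12.8 over 108 pairs of different number. A one-sided permutation of the numbers within gates gave p = 5e-05 (adjusted over 4 tests by Benjamini-Hochberg, 0.0001). For Trbv it was 63.8% ± 17.4 against 55.6% ± 16.8 (permutation p = 3e-05, adjusted 0.0001), an excess of 8.21 points. With every library thinned to the 53 Trbv counts of the smallest, the excess was 4.51 points and no longer passed (permutation p = 0.0252, adjusted 0.0504). That smallest library was Iso PD1-KLRG1+ replicate 3, whereas each Tri library held at least 3717 Trbv counts. The thinning thus dropped most Tri counts and does not measure depth differences among Tri libraries. Pairs share libraries and so are not independent, which the permutation takes into account. In Iso, Trav overlap was 29.3% over 4 pairs of equal number and 25.7% over 12 of different number (exact permutation p = 0.0417, the smallest that 24 arrangements allow, adjusted 0.0556). Trbv overlap was 53.9% and 52.0% (exact permutation p = 0.167).

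Between PD1+KLRG1+ and PD1+KLRG1-, libraries of equal number shared 62.3% ± 14.3 of Trav usage (5 pairs), against 28.8% ± 6.77 over 20 pairs of different number. By replicate number the overlap was 63.2%, 49.3%, 46.8%, 73.3% and 79.1%, and no pair of different number passed 40.1%. With near-identical copies merged it was 64.1%, 64.1%, 58.8%, 75.4% and 81.7%, against at most 47.9%. For Trbv it was 60.2%, 76.4%, 72.1%, 82.5% and 88.1%, with a mean of 75.9% ± 10.6 against 47.4% ± 9.39. Pairs of different number reached 69.9%, above the 60.2% of replicate 1, so the Trbv ranges overlapped. The library of the same number was the best match in the other gate for 5 of 5 PD1+KLRG1+ libraries by Trav and for 4 of 5 by Trbv. An exact one-sided permutation over 120 arrangements gave p = 0.00833, the smallest possible, for each of these 3 measures, with n = 5 numbers. These PD1+ gates were singled out after the overlaps had been seen.

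**Figure D5:**
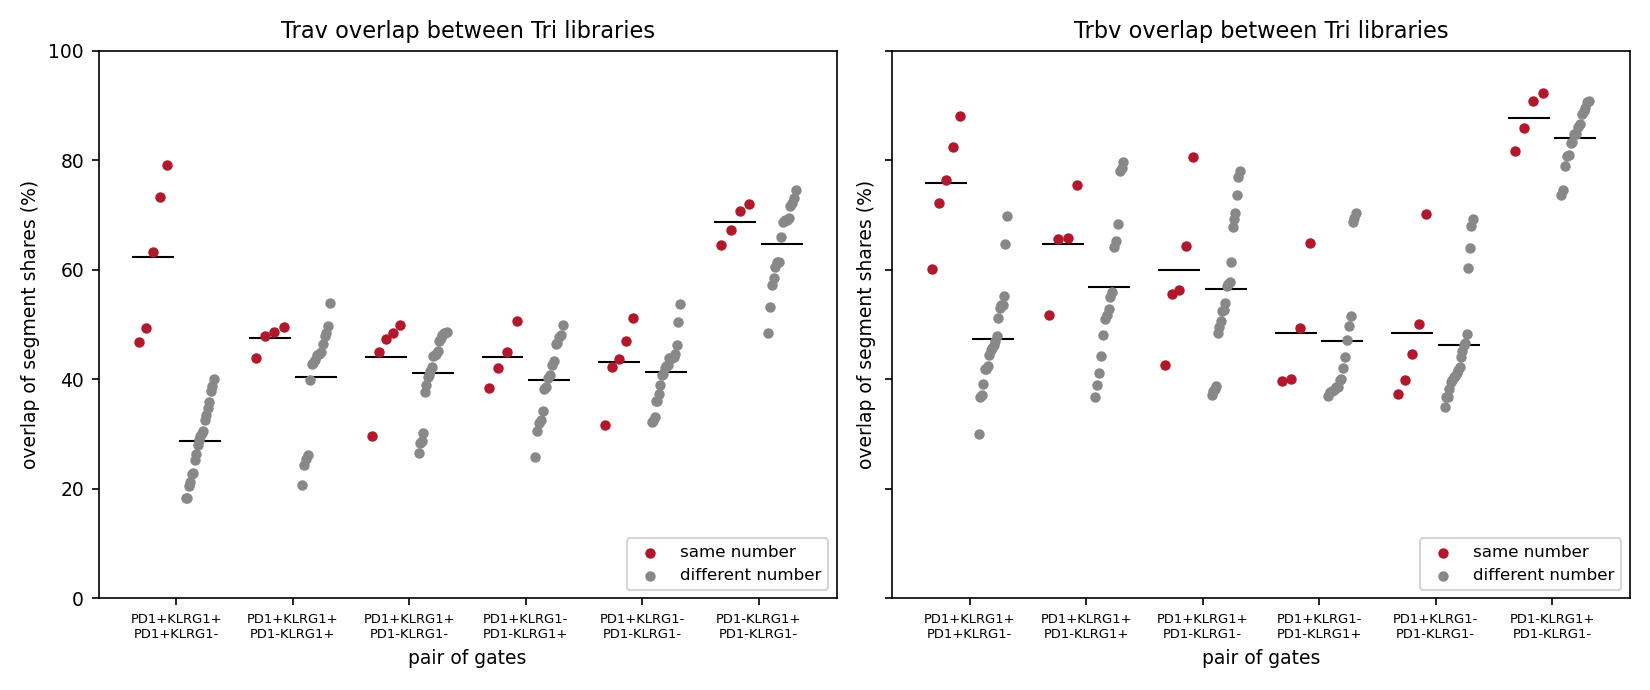
Overlap of segment usage (percent, y axis) between libraries of 2 Tri gates, for each of the 6 pairs of gates (x axis), with Trav and Trbv in separate panels. Points are pairs of libraries, red for equal and grey for different replicate numbers, and lines are means. Equal numbers stand apart most clearly between the 2 PD1+ gates, at 46.8% to 79.1% for Trav and 60.2% to 88.1% for Trbv.

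Outside that pair of gates the excess was smaller. Over the 5 other pairs of Tri gates, Trav overlap was 48.9% for equal numbers (22 pairs) and 45.1% for different numbers (88 pairs; permutation p = 0.00062), and Trbv overlap 61.1% and 57.5% (permutation p = 0.00109). Between the 2 Tri PD1- gates, equal numbers shared 68.7% ± 3.35 of Trav usage (4 pairs) and different numbers 64.6% ± 7.65 (16 pairs). Within a gate, different PD1+ libraries shared little: 27.2% and 30.2% of Trav usage and 52.4% and 46.3% of Trbv usage on average in the KLRG1+ and KLRG1- gates.

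The segments behind the PD1+ overlap could be named for each number. In replicate 5, the 5 leading beta segments were the same in both gates (Trbv13-1, Trbv14, Trbv5, Trbv13-2 and Trbv16) and held 87.5% and 79.6% of Trbv counts. In replicate 4, Trbv16, Trbv5, Trbv13-1 and Trbv3 were among the top 5 of both gates and held 71.9% and 81.8%. Replicates 1 and 3 shared 4 of 5 and replicate 2 shared 3 of 5, with Trbv13-2, Trbv17 and Trbv2 at 33.3% and 32.7% together.

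On the alpha side the leading units of a number were mostly found in both of its PD1+ gates, and some led in more than 1 number. With copies merged, Trav7-2/Trav7d-2 led in both gates of replicate 1, with 22.4% and 19.9% of Trav counts in PD1+KLRG1+ and PD1+KLRG1-, and Trav16n stood next with 10.0% and 13.6%. Trav6-6/Trav6d-6 led in both gates of replicate 2. Trav13d-1/Trav13n-1 led in both gates of replicate 5, with 21.8% and 23.2%, followed by Trav13-1 with 14.2% and 10.7%. Replicates 3 and 4 changed leader between gates but kept the same pair on top. Trav7-2/Trav7d-2 held 10.6% and 9.36% and Trav10/Trav10d/Trav10n 10.2% and 13.4% in replicate 3. In replicate 4 Trav10/Trav10d/Trav10n held 17.3% and 14.3% and Trav7n-6 14.8% and 19.1%. Replicate 3 held most of this share as Trav10 (8.18% and 13.1%) and replicate 4 as Trav10d (16.8% and 14.01%). The 3 bases printed above that tell these copies apart lie in the first 150 coding bases.

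In Tri PD1- cells 1 merged alpha unit led throughout, while the leading single segment varied. The merged unit Trav3-3/Trav3d-3/Trav3n-3 led in all 9 Tri PD1- libraries, with 7.41% to 10.4% of Trav counts, and in 3 of 4 Iso PD1-KLRG1- libraries. Of unmerged segments, Trav12-2 had the highest mean share over the 27 libraries (4.94%). It held 6.29%, 5.69%, 5.79% and 4.75% in Iso PD1-KLRG1- replicates 1 to 4, where it led in 3 of 4 libraries, and it led in 3 of 5 Tri PD1-KLRG1- libraries. In PD1+KLRG1+ its share ran from 0% to 6.998% and in PD1+KLRG1- from 0.495% to 8.72%.

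Each gene was also tested with the edgeR quasi-likelihood F test on counts of all 27 libraries, with Benjamini-Hochberg adjustment over 14059 genes and a threshold of 0.05. Of the members, 103 Trav and 22 Trbv passed the filter on low counts, and the rest were not tested. In PD1+ against Tri PD1- cells of the KLRG1- gates, 1 of 125 members was called, Trbv12-2, against 1.56 percent of all genes called in either direction and 0.939 percent called lower. Its log2 fold change was -2.65 ± 0.59 (SE, edgeR adjusted p = 0.0137), lower in 5 of 5 PD1+ libraries. The call was lost when PD1+KLRG1- replicate 2, 3, 4 or 5 was left out, with adjusted p of 0.0559, 0.0612, 0.0571 and 0.0570, and over all alternatives it ran from 7.35e-07 to 0.0792. The median log2 fold change of the members was -1.12, against 0.06 over all genes. Segments low in PD1+ cells could pass the filter through other groups, so this median is no result separate from the narrower usage. Before adjustment 20 members (16%) had p below 0.05, 18 of them lower in PD1+ cells, against 9.52% of all genes. DESeq2 called 7 members (5.6%), all lower, against 3.73% of all genes. With only these 2 groups fitted, edgeR called 2 of 92 members (2.17%), against 6.76% of all genes.

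In the KLRG1+ gates the edgeR test called 0 of 125 members between PD1+ and PD1- cells, against 1.20 percent of all genes. Before adjustment 10 (8%) were below 0.05, all lower in PD1+ cells, against 11.2% of all genes. DESeq2 called 5 (4%), all lower, against 5.02% of all genes. These shares were below those of all genes. Trbv12-2 had a log2 fold change of -1.59 ± 0.59 (edgeR adjusted p = 0.243). The median over the members was -0.69, against -0.01 over all genes, with the same limit as in the KLRG1- gates.

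Iso PD1-KLRG1+ also used few segments, and each of its libraries had its own leaders. Its effective number of alpha segments was 16.6, 15.8, 13.1 and 12.4 in replicates 1 to 4, and that of beta segments 11.4, 12.1, 5.15 and 7.08. The leading beta segment was Trbv13-2 at 17.8% in replicate 1, Trbv1 at 15.9% in replicate 2, Trbv16 at 37.7% in replicate 3 and Trbv19 at 27.6% in replicate 4. The leading alpha segment was Trav9-2 at 16.2%, Trav12-2 at 16.2%, Trav13-1 at 25% and Trav4-4-dv10 at 21.8% in the same order. Replicate 3 rests on 53 Trbv and 48 Trav counts, so that its Trbv16 share has a 95% Wilson interval of 25.9% to 51.2%. Pairs of libraries of this group shared 18.2% of Trav usage on average, the lowest of all groups, and 40.5% of Trbv usage. Without replicate 3 these became 18.7% and 47.1% over 3 pairs, and the Trbv value then lay above the 46.3% within Tri PD1+KLRG1-.

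Evenness in Iso PD1-KLRG1+ was 0.566 ± 0.0303 for Trav and 0.662 ± 0.127 for Trbv (SD, n = 4). In Iso PD1-KLRG1- it was 0.875 ± 0.0107 and 0.875 ± 0.00472 (n = 4), and in Tri PD1-KLRG1+ 0.866 ± 0.0154 and 0.873 ± 0.00986 (n = 4). The libraries did not overlap in any of these comparisons, and each exact permutation test gave p = 0.0286, which is the lowest value for 4 against 4 libraries, and 0.075 after adjustment. The effect of treatment on Trbv evenness in KLRG1+ cells (0.211) differed from that in KLRG1- cells (-0.00997) by 0.221, with an exact permutation p of 0.00374 (adjusted over 12 such tests, 0.0449; n = 4 or 5 per group). For Trav the difference was 0.313 (exact p = 0.0117, adjusted 0.0626). Treatment labels were permuted within each KLRG1 gate, so both tests assume no treatment effect in either gate. Their p does not measure the difference between the effects alone. Leaving out each Iso PD1-KLRG1+ library in turn kept the difference for Trbv between 0.170 and 0.259 (n = 3 to 5 per group). That for Trav stayed between 0.302 and 0.323, and the lowest Trbv value was the one without replicate 3. The exact permutation p was 0.0034 and 0.0111 whichever library was left out. The remaining Iso libraries lay below all Tri PD1-KLRG1+ libraries each time, so these p do not measure stability. The same 4 libraries lacked counts for 9.82% to 29.4% of the 6935 genes of ordinary expression, and in replicate 4 this held at a total of 19929546 counts. Summed expression of 8 myeloid markers ran from 64.4 to 2313 CPM in them, against 121 to 145 CPM in Tri PD1-KLRG1+ and 105 to 1393 CPM in Iso PD1-KLRG1-. The part of missing genes and of other cells in the narrow usage was not tested.

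In gene-wise terms, 8 members (6.4% of 125) were called lower in Iso PD1-KLRG1+ than in Iso PD1-KLRG1- by the edgeR test, against 7.43 percent of all genes called lower and 8.66 percent called in either direction. Another 8 (6.4%) were called higher in Tri PD1-KLRG1+ than in Iso PD1-KLRG1+, against 5.46 percent of all genes called higher and 6.08 percent called in either direction. With only these 2 groups fitted, edgeR called 0 of 79 members and 0 of 9808 genes between Tri and Iso PD1-KLRG1+, and the adjusted p of each of the 8 became 0.139. The count there was 5 without a filter and 22 (17.6%) with DESeq2, against 13.8% of all genes by DESeq2. Between the KLRG1 gates of Iso, the count was 15 of 86 (17.4%) with only those groups fitted, against 9.39% of all genes. It was 5 without a filter and 19 (15.2%) with DESeq2, against 16.5% of all genes by DESeq2. Shares over all genes without a filter are not given here for either comparison. Both comparisons use the same 4 Iso PD1-KLRG1+ libraries. In the model of all libraries, their shares were close to the background, and median log2 fold changes of the members were -1.69 and 2.09, against -0.52 and 0.34 over all genes. Segments without counts in Iso PD1-KLRG1+ could pass the filter on low counts through the other groups. These medians are therefore no result separate from the narrow usage. The members called were mostly segments without a single count in Iso PD1-KLRG1+. Trav14-2 had 0 counts there, 602 in Iso PD1-KLRG1- and, under Tri, 211 in PD1-KLRG1+, at least 99.8-fold lower and, for Tri, at least 61.1-fold higher, with the floor set at 3 counts per group. Trav8d-2 had 0, 366 and 198 counts (at least 60.7-fold lower and at least 57.3-fold higher), and Trav12-3 0, 317 and 282 (at least 52.6-fold lower and at least 81.7-fold higher). These bounds pool the libraries of a group and cover counting error only. The Iso PD1-KLRG1+ libraries lacked counts for 9.82% to 29.4% of genes of ordinary expression, so 0 counts need not mean absence from the cells. Trbv15, the only beta segment among them, had 1 count in Iso PD1-KLRG1+ against 809 in Iso PD1-KLRG1- and, under Tri, 558 in PD1-KLRG1+.

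Near-identical copies bear on several of these alpha calls. Trav7-4 had 0 counts in Iso PD1-KLRG1+ against 574 and 350, but its 99.41% identical copy Trav7d-4 had 235 there against 325 and 131. Merged, Trav7-4/Trav7d-4 had log2 fold changes of -0.10 and 0.01 (edgeR adjusted p = 0.989 and 1). The merged unit of Trav5-4 likewise did not pass (adjusted p = 0.447 and 0.315). Trav14d-2, 97.8% identical to Trav14-2 and so not merged with it, had 369 counts in Iso PD1-KLRG1+ where Trav14-2 had none. With copies merged, 7 units were called lower and 6 higher in these comparisons. Shares over all genes in that fit are not given here, so these counts are no result about the segments.

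The remaining 3 comparisons gave no called member by edgeR. Between Tri and Iso in PD1-KLRG1- cells, 0.804 percent of all genes were called in either direction. Before adjustment 1 of 125 members (0.8%) was below 0.05, against 8% of all genes. Between KLRG1+ and KLRG1- in Tri PD1+ cells 0.0569 percent of all genes were called, and before adjustment 7 members (5.6%) were below 0.05, against 6.61% of all genes. In Tri PD1- cells 0 percent were called, with 1 member (0.8%) and 4.80% of all genes below 0.05 before adjustment. DESeq2 also called 0 members in each. Median log2 fold changes of the members were 0.36, 0.17 and -0.12, against -0.09, -0.07 and -0.01 over all genes. In the first of these, summed Trav expression was 450.5 ± 55.8 CPM in Tri (n = 5) and 340.8 ± 75.8 CPM in Iso (n = 4; exact permutation p = 0.0476, adjusted 0.118).

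Genes of the receptor other than V segments were tested in the same model. Of 9 genes for the constant regions, the CD3 chains and CD8, which carry the receptor signal or hold the coreceptor, 2 were called higher in PD1+ cells in both KLRG1 gates and none lower. Of all genes, 1.56 percent were called in either direction in KLRG1- cells and 1.20 percent in KLRG1+ cells. Cd3g, a CD3 chain, had log2 fold changes of 0.71 in KLRG1- and 0.82 in KLRG1+ cells (edgeR adjusted p = 0.00524 and 0.00455), and Cd8a, the CD8 alpha chain, 0.50 and 0.63 (adjusted p = 0.0165 and 0.00590). Trac, the alpha constant region, was at 1138 ± 189 and 1203 ± 203 CPM in the PD1+ gates (n = 5 each) and at 1168 ± 153 and 1194 ± 104 CPM in the Tri PD1- gates (n = 4 and 5). Its PD1 log2 fold changes of -0.07 and -0.04 did not pass (edgeR adjusted p = 1 for both). Trac was called higher in Tri than in Iso PD1-KLRG1+ cells (log2 fold change 0.59, edgeR adjusted p = 0.0465). It was the only one of the 9 in that comparison, against 5.46 percent of all genes called higher. With only these 2 groups fitted, edgeR called 0 of 9808 genes. The Iso libraries of that comparison lacked counts for many genes of ordinary expression. Of 60 Traj and 14 Trbj joining segments in the table, 43 and 13 held counts. They summed to at most 3.76 and 0.713 CPM in any library, so joining segment usage was not analysed here.

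Segments of invariant receptors held small shares in most libraries. Trav11 and Trav11d, used by the invariant alpha chain of NKT cells, held at most 0.230% and 1.38% of Trav counts in any library and were without a count in 16 and 12 of the 27 libraries. Trav1, used by the invariant alpha chain of MAIT cells, was without a count in 8 libraries, and it reached 11.997% in PD1+KLRG1- and 4.35% in PD1+KLRG1+ of replicate 1. In the other 25 libraries Trav1 stayed at or below 2.25%.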

How the data were processed

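The deposited table held whole-number counts per Ensembl mouse gene with no normalisation by the authors, per the file headers and values. DESeq2 1.26.0 is named in the submitters' processing notes without a role. The genome build, aligner and counting tool were not given in the sources used here, so how reads of identical copies were shared is unknown. CPM were computed here from the deposited counts. Symbols, positions and sequences came from GENCODE M21 (GRCm38).

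The members, lists and tests were chosen with earlier results of these data known. The segments named were the 8 with the highest mean share per chain, every segment that led a library, up to 4 called in each direction of a comparison by smallest p, Trav1, Trav11 and Trav11d, and constant genes. Other named segments (Trbv3, Trbv12-1, Trbv14, Trav7d-2, the copies of named segments and those among leading segments shared by 2 gates) were chosen after their values were seen.

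Shares, evenness and overlap were computed in Python 3.11.15 with scipy 1.17.1. Group differences were tested with exact permutation tests, and numbers were permuted exactly or by 100000 resamples. edgeR 4.0.16 in R 4.3.3 fitted a robust quasi-likelihood model with TMM scaling, filterByExpr at a minimum count of 10 and terms for the group and the name series. It was tested on simulated data, as were evenness and overlap. The edgeR simulation used a common mean profile, a fixed dispersion and planted changes, without clones, so it does not bear on the tests of V segments. Alternatives included DESeq2 1.42.0, RLE scaling, other filters, thinning, families and leaving out each library. Merging copies, length-scaled counts, the choice of gate pairs and leaving out Iso PD1-KLRG1+ libraries for the difference in treatment effects and the overlap within that group were added after seeing the data. Deviations of same-numbered libraries from their group means, over genes without receptor segments, correlated by -0.0732 to 0.150 over 31 pairs. The 4 pairs above 0.1 were all of Tri replicate 4. The numbers were therefore not counted as pairing in the main tests, although V segment usage overlapped more between equal numbers. A replicate block was run as an alternative, with its values given below.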

Additional observations from a re-analysis of the deposited data

Results flagged for a closer look

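In 5 sets, single libraries stood far from the rest of their group, with a gap to the nearest library that was large against the group's range. Trav evenness in Tri PD1-KLRG1- replicate 5 was 0.798, below the other 4 libraries, and 3.42% of genes of ordinary expression had no count there. In the PD1+ gates, Trbv13-1 held 52.1% of Trbv counts in PD1+KLRG1+ replicate 5, and Trbv12-2 held 0.952% in the same library. Trbv12-2 held 4.16% in PD1+KLRG1- replicate 1, and Trbv1 held 8.31% in PD1+KLRG1- replicate 2. Such libraries were found in 5 of 84 sets, and chance gives about 5% of sets.

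The effect of treatment on Trbv evenness in PD1- cells differed between KLRG1+ and KLRG1- cells by 0.221, as given above with its exact permutation test and the limit of that test. It rests on the Iso PD1-KLRG1+ libraries, in which many genes of ordinary expression had no count.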

How the results depend on the processing

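Leaving out each library in turn, the difference in Trav evenness ran from -0.00699 to 0.0248 between KLRG1 gates of Tri PD1+, from -0.0118 to 0.0114 in Tri PD1- and from -0.0183 to 0.00344 between Tri and Iso PD1-KLRG1-. Differences in summed Trav CPM ran from -15.2 to 87.1 between KLRG1 gates of Iso, from -37.4 to 7.90 in Tri PD1+ and from -19.8 to 82.5 between Tri and Iso PD1-KLRG1+. Those in summed Trbv CPM ran from -51.5 to 0.162 between KLRG1 gates of Tri PD1+, from -31.9 to 15.97 in Tri PD1- and from -55.8 to 0.0815 between PD1 gates of KLRG1- cells, and that in the top Trbv share from -0.975 to 0.577 points between KLRG1 gates of Tri PD1-. The excess overlap of equal numbers in Iso ran from -0.472 to 7.26 points for Trav and from -3.88 to 10.1 for Trbv. Members called between PD1 gates of KLRG1- cells ran from 0 to 1. None of the differences among these had passed its test. The log2 fold change of Trbv16 between PD1 gates of KLRG1+ cells ran from -0.17 to 0.81.

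Other settings reversed differences that had not passed either. Trav evenness between KLRG1 gates of Tri PD1+ became -0.00141 with segments of at least 1000 counts, and the top Trav share there rose to 2.24 points with families. With libraries without the name suffix, Trav evenness became 0.00791 between Tri and Iso PD1-KLRG1- and -0.0162 between KLRG1 gates of Tri PD1-, and Trbv evenness -0.00422 in the latter. With copies merged, the top Trav share became 0.926 and 0.367 points higher in these comparisons. With families, the Iso Trav overlap of equal numbers fell below that of different numbers (-2.86 points). The Tri Trbv excess, which had passed, was lost when thinned to the smallest chain total, that of an Iso library, at 4.51 points (permutation p = 0.0252, adjusted 0.0504). Members called between Tri and Iso PD1-KLRG1+ became 22 with DESeq2 (17.6%, against 13.8% of all genes). They became 5 without a filter and 0 with only those groups fitted (0% of all genes). Between KLRG1 gates of Iso they became 19 with DESeq2 (15.2%, against 16.5% of all genes) and 5 without a filter. With only those groups fitted they became 15 (17.4%, against 9.39%). Between PD1 gates DESeq2 called 5 in KLRG1+ cells (4%, against 5.02%) and 7 in KLRG1- cells (5.6%, against 3.73%). With only those groups fitted, 2 were called in KLRG1- cells (2.17%, against 6.76%). Shares over all genes without a filter are not given here. The cause was not tested.

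With a replicate block, Trav evenness between KLRG1 gates of Tri PD1- became -0.0118 and the log2 fold change of Trbv16 between PD1 gates of KLRG1+ cells -0.0397. Members called between KLRG1 gates of Iso became 5, without Trav5-4, Trav12-1 and Trav17. The share over all genes with the block is not given here. Blocked PD1 differences in evenness in KLRG1+ and KLRG1- cells were -0.130 and -0.151 for Trav and -0.112 and -0.231 for Trbv. For both chains, exact sign flips gave p = 0.125 in KLRG1+ cells (4 pairs) and 0.0625 in KLRG1- cells (5 pairs), before adjustment. The block changed no other call. PD1 differences in evenness kept their direction under every setting run. Depth limits Iso PD1-KLRG1+ replicate 3, where a V segment held few counts.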

Other observations

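The gamma constant gene Tcrg-C2, which CD8+ alpha-beta T cells may also transcribe, was higher in PD1+ than in PD1- cells of Tri. Its mean was 217.3 ± 100.6 CPM in Tri PD1+KLRG1+ and 199.8 ± 45.9 CPM in Tri PD1+KLRG1- (SD, n = 5 each), against 40.8 ± 4.24 (n = 4) and 60.96 ± 9.55 CPM (n = 5) in the matching PD1- gates. Its log2 fold changes were 2.36 and 1.66 (edgeR quasi-likelihood test, Benjamini-Hochberg adjusted p = 0.00163 and 0.0104). Trdc, the delta constant gene that defines gamma-delta T cells, reached 1.86 ± 2.82 and 0.743 ± 1.24 CPM in the PD1+ gates and had no count in 3 of 5 libraries of each. It was highest in Iso PD1-KLRG1-, at 28.4 ± 6.67 CPM (n = 4). Summed expression of 6 gamma-delta genes, Tcrg-C2 and Trdc among them, was 183.9 ± 28.8 CPM in Iso PD1-KLRG1- and 59.6 ± 30.3 CPM in Iso PD1-KLRG1+ (n = 4 each). In the PD1+ gates this sum was 241.6 ± 114.8 and 212.2 ± 46.5 CPM (n = 5 each), so a PD1- group came close to them.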
